A study of Mus musculus with 8 samples.

Results

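The imprinted growth genes studied here were 10 genes: *H19*, *Igf2*, *Igf2r*, *Meg3*, *Dlk1*, *Cdkn1c*, *Plagl1*, *Peg3*, *Mest* and *Grb10*. They were taken by their gene symbol from the 24063 genes (33068 transcripts) listed for each culture, with no threshold on their values. Earlier results of these data were known when the genes were chosen. All 10 were listed and all 10 passed the filter on low counts, as did 16557 genes in all. RNA-Seq had been performed on 8 mouse tubuloid cultures, which are tubule fragments of neonatal kidney grown in Matrigel into hollow spheres and tubules. The 4 control cultures (numbered 3, 7, 14 and 21) received medium with growth factors, and the 4 GDNF cultures (6, 12, 17 and 22) received the same medium with GDNF for the initial 24 h. GDNF, glial-derived neurotrophic factor, is the ligand of the Ret receptor that drives outgrowth of the ureteric bud. All cultures were collected on culture day 7.

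All 8 cultures carried the genotype Pkd2fl/fl Pax8rtTA TetOCre mTmG and were labelled as postnatal day 7 to 10 kidney, while the methods of the study give an earlier range of days. In this line Cre is under a doxycycline-inducible, Pax8-driven switch that acts in renal tubule cells, and mTmG is a fluorescent Cre reporter. The labels name no doxycycline for these cultures, so both groups held the floxed *Pkd2* alleles. The labels do not say whether the cultures of a group came from separate animals, so the p-values measure the spread between these cultures only. The cultures were sorted into 2 kinds by the larger of *Xist* RNA and summed RNA of the Y-linked genes *Ddx3y*, *Eif2s3y*, *Kdm5d* and *Uty*. The *Xist* kind was control 3 and 7 and GDNF 6 and 12, and the Y-linked kind control 14 and 21 and GDNF 17 and 22. Each group held 2 of each kind. The split was not clean, since control 3 and GDNF 6 also held Y-linked RNA, while control 7 and GDNF 12 held none. It was at most 6.46 TPM in the *Xist* kind, beside 115.8 TPM or more in the Y-linked kind. The source of this RNA was not tested.

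Imprinted genes are expressed mainly from the allele inherited from 1 parent, because DNA methylation laid down at CpG sites in the egg or sperm persists at their control regions. Many of them set growth before and shortly after birth, and their RNA falls in most organs as growth slows. Paternally expressed genes such as *Igf2*, *Dlk1*, *Peg3*, *Mest* and *Plagl1* tend to favour growth, and maternally expressed genes such as *H19*, *Igf2r*, *Cdkn1c* and *Grb10* tend to limit it. The counts held no information on alleles, so which parental copy was read could not be measured.

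Total counts over all transcripts ranged from 85536401 to 97490625 in control cultures and from 72991721 to 93074126 in GDNF cultures. The share of counts on short transcripts, those of up to 1734 nt, was 34.0% to 45.5% in control and 29.2% to 34.3% in GDNF cultures, with control 3 the highest. TPM, the deposited level scaled for transcript length and library total, was higher after GDNF for 78.6% of the 13698 genes whose mean reached 1 TPM, with a median log2 ratio of 0.40. CPM, the summed count of a gene scaled for library size by TMM, holds a read once for each transcript it fits and had a median log2 fold change of 0.033. TPM was therefore used for levels between genes, and CPM with edgeR for the comparison of groups. The epithelial markers summed to 589.5 to 4182 TPM in control and 1275 to 1933 TPM in GDNF cultures, and all 11 were detected. The 15 stromal and fibroblast markers summed to 579.0 to 3228 TPM and 663.4 to 2357 TPM, so mesenchymal RNA was present in every culture.

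All 10 genes were expressed, at mean levels that spanned 1.35 to 29.1 TPM over the 8 cultures. *Grb10* was the highest at 29.1 TPM, followed by *Mest* (19.2 TPM), *Peg3* (13.8 TPM), *Cdkn1c* (13.1 TPM) and *H19* (8.67 TPM). *Plagl1* (4.81 TPM), *Igf2r* (4.74 TPM), *Meg3* (4.34 TPM), *Igf2* (2.21 TPM) and *Dlk1* (1.35 TPM) were lower. The place of *Meg3* holds for its long transcript only, since its short transcript averaged 24.9 TPM, which would put it second. The order is one of means only: of the 9 neighbouring pairs in it, 0 had the higher gene ahead in every culture. *Cdkn1c* exceeded *H19* in 7 of 8 cultures, *Grb10* exceeded *Mest* in 6 of 8, and *H19* exceeded *Plagl1* in 4 of 8. Among the 10 genes, the spread over cultures was widest for *H19*, *Igf2* and *Meg3* and narrowest for *Grb10* and *Igf2r*. The coefficient of variation in CPM was 77.9% for *H19*, 64.3% for *Igf2*, 63.2% for *Meg3*, 20.8% for *Grb10* and 23.5% for *Igf2r*, beside a median of 27.9% over all genes tested. The rest of the 10 genes ran from 31.7% for *Plagl1* to 57.7% for *Mest*. *H19* thus varied more than 94.0% of the genes tested, and *Grb10* more than 30.6%.

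**Figure D1:**
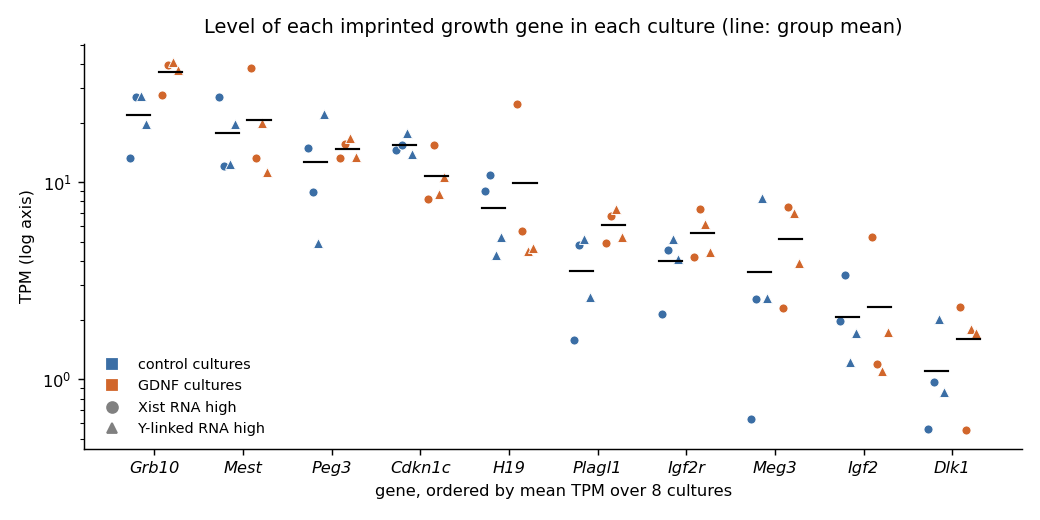
TPM of each gene (log axis) in each control culture (blue) and GDNF culture (orange), with group means as black lines and the kind of culture as the symbol. *Grb10* leads at a mean of 29.1 TPM and *Dlk1* is lowest at 1.35 TPM, and the groups overlap for all genes but *Grb10*.

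Tested with edgeR (quasi-likelihood, Benjamini-Hochberg over the whole table), 0 of the 10 genes differed between groups at an adjusted p of 0.05, as was so for 0% of the 16557 genes, and the smallest adjusted p of any gene was 0.167. At an unadjusted p of 0.05, 1 of the 10 was lower after GDNF (*Cdkn1c*), beside 12.9% of all genes, and 0 were higher, beside 9.25% of all genes. Of the 10 estimates, 6 lay above 0 and 4 lay below, with a median log2 fold change of 0.071. The median was -0.21 with the transcript length trend of each culture taken out (-0.034 for all genes), so its sign depends on that setting. The same count by non-overlapping CPM was 1 lower, beside 6.26% of all genes, and 0 higher, beside 6.99%. DESeq2 called 1 member, *Cdkn1c*, among the 6.86% of genes that it called lower after GDNF. These shares of the 10 genes were near those of the whole table.

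*Cdkn1c* encodes p57Kip2, a maternally expressed inhibitor of cyclin-dependent kinases that marks cells leaving the cell cycle, podocytes among them. It lies on chromosome 7 (GRCm38 chr7:143458339-143461050, minus strand, GENCODE M21), in the *Kcnq1* part of the *H19*-*Igf2* cluster, and the annotation places an unnamed antisense gene over an exon. Its CPM was 48.6, 37.6, 43.0 and 31.4 in control cultures 3, 7, 14 and 21, and 17.1, 29.9, 17.03 and 19.5 in GDNF cultures 6, 12, 17 and 22. Every GDNF culture was below every control culture, with GDNF 12 at 29.9 just under control 21 at 31.4. The mean was 40.1 ± 7.35 CPM (SD, n = 4) in controls and 20.9 ± 6.14 CPM (SD, n = 4) after GDNF, a fold of 0.520. The log2 fold change was -0.94 with an SE of 0.22 (unadjusted p = 0.00157, edgeR adjusted p = 0.167). The exact permutation test of the CPM means gave p = 0.0286, the smallest that 4 against 4 cultures can give. DESeq2 estimated -0.96 with an adjusted p of 0.0183, and over the other settings and left-out cultures the adjusted p was 0.0583 to 0.381 with edgeR or limma. The size was alike in both kinds of culture, at a log2 ratio of mean CPM of -0.87 in the *Xist* kind and -1.03 in the Y-linked kind. In TPM the groups overlapped through GDNF 12 alone, at 15.5 ± 1.67 (SD, n = 4) in controls and 10.8 ± 3.26 (SD, n = 4) after GDNF (exact permutation p = 0.0857). Leaving out any other culture gave an exact permutation p of 0.0857 to 0.114. Leaving out GDNF 12 removes the overlap by choice of that culture, so the p of 0.0286 without it adds no support. With the transcript length trend of each culture taken out, the estimate was -0.84 (adjusted p = 0.215). In bulk RNA, fewer cells that make a transcript and less of it per cell cannot be told apart.

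Cell cycle genes and podocyte genes are given beside *Cdkn1c* because its protein acts there. Of the 9 cell cycle genes, 4 were lower and 1 was higher after GDNF at an unadjusted p of 0.05, beside 12.9% and 9.25% of all genes, and 0 passed the adjusted test. *Cdk1*, the mitotic kinase, had a log2 fold change of -0.70 (SE 0.17, unadjusted p = 0.00242, edgeR) and *Pcna*, the replication clamp, -0.58 (SE 0.16, unadjusted p = 0.00500, edgeR). The other lower genes were *Ccne1*, cyclin E1 (-0.49, SE 0.21), and *Ccnd1*, cyclin D1 (-1.31, SE 0.56), the latter named after its values were seen. *Mki67*, the proliferation marker Ki-67, was the higher one (0.49, SE 0.20), and was at 0.072 with the transcript length trend of each culture taken out. The groups overlapped in CPM for these 3. The 6 podocyte markers summed to 23.2 to 135.1 TPM in control and 35.4 to 152.7 TPM in GDNF cultures, and 0 of the 6 passed at an unadjusted p. The part of either in the *Cdkn1c* values was not tested.

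Among the 7 inhibitors of cyclin-dependent kinases measured, 6 estimates lay below 0, with a median log2 fold change of -0.42 beside 0.033 for all genes. At an unadjusted p of 0.05, 2 were lower, beside 12.9% of all genes. Besides *Cdkn1c* this was *Cdkn2d*, which encodes p19Ink4d, with a log2 fold change of -0.64 (SE 0.19, edgeR adjusted p = 0.167) and no overlap between groups. Over all genes, 6.26% were lower in CPM without overlap. *Cdkn2b*, which encodes p15Ink4b, was at -0.46 (SE 0.26, adjusted p = 0.311) and *Cdkn1b*, which encodes p27Kip1, at -0.42 (SE 0.24, adjusted p = 0.319). None of the 7 passed the adjusted test with edgeR.

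*Grb10*, an adaptor that binds the activated insulin and IGF1 receptors and dampens their signal, spans GRCm38 chr11:11930508-12038683 on the minus strand. Its TPM was 13.3, 27.2, 27.6 and 19.8 in control cultures 3, 7, 14 and 21, and 27.7, 39.2, 40.6 and 37.0 in GDNF cultures 6, 12, 17 and 22. Every GDNF culture exceeded every control culture, the closest being GDNF 6 at 27.7 and control 14 at 27.6. The means were 21.97 ± 6.80 TPM (SD, n = 4) and 36.1 ± 5.82 TPM (SD, n = 4), with an exact permutation p of 0.0286 (adjusted over 13698 genes, 0.119). The p was 0.0571 when any of control 3, 7, 14 or 21 or GDNF 17 was left out. In TPM 23.4% of all genes were higher after GDNF by this test and 0.679% lower, and this share is to be read beside the *Grb10* value. In CPM the groups overlapped, and the log2 fold change was 0.34 with an SE of 0.19 (edgeR adjusted p = 0.305). It was 0.090 with the transcript length trend taken out. The transcript used for its TPM is 5089 nt long.

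**Figure D2:**
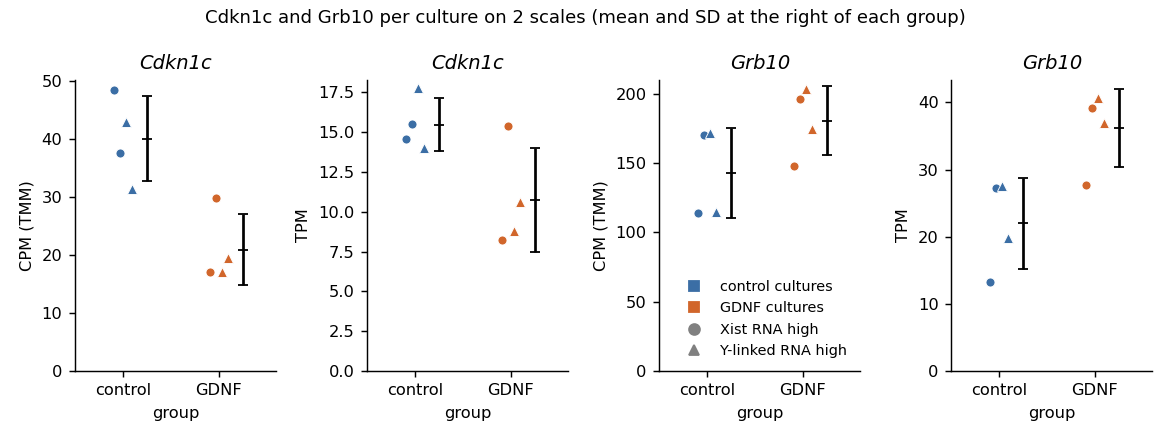
CPM after TMM scaling and TPM of *Cdkn1c* and *Grb10* in each control (blue) and GDNF (orange) culture, on axes from 0, with the mean and SD of each group in black. The groups separate for *Cdkn1c* in CPM (40.1 against 20.9) but not in TPM, and for *Grb10* in TPM (21.97 against 36.1) but not in CPM.

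*Plagl1*, a zinc finger transcription factor known to act on other imprinted genes, lies at GRCm38 chr10:13060504-13131694 on the plus strand. Its CPM was 7.12, 15.7, 16.96 and 7.99 in control cultures 3, 7, 14 and 21, and 13.8, 17.9, 19.2 and 13.2 in GDNF cultures 6, 12, 17 and 22. The groups overlapped, since control 7 and 14 lay within the GDNF range. The log2 fold change was 0.42 with an SE of 0.30 (edgeR adjusted p = 0.423), or 0.18 (adjusted p = 0.771) with the transcript length trend taken out, and the TPM means of 3.54 ± 1.73 and 6.07 ± 1.14 (SD, n = 4 each) gave an exact permutation p of 0.0571. Its levels went together with those of *Grb10*. *Grb10* was at 114.3, 170.1, 171.7 and 114.6 CPM in control cultures 3, 7, 14 and 21, and at 147.9, 196.4, 203.3 and 174.4 CPM in GDNF cultures 6, 12, 17 and 22. Control 3 and 21 were thus low for both genes. Among the 45 pairs of the 10 genes, *Plagl1* and *Grb10* were the most alike over the 8 cultures (Pearson r of log2 CPM 0.958, given as a measure of likeness without a test). Both have long transcripts, and control 3 was also the culture with the highest share of counts on short transcripts. The part of transcript length in this likeness was not tested. The 250 bases before a RefSeq transcript start of each gene are shown because imprinted control rests on CpG sites, whose methylation was not measured here. The stretches are promoters and were not chosen as the control regions of the imprints. Both starts lie inside the gene span given above. CpG sites are in capitals, read 5′ to 3′ on the strand of the gene (RefSeq, GRCm38.p6).
*Plagl1*, chr10:13090582-13090831, plus strand: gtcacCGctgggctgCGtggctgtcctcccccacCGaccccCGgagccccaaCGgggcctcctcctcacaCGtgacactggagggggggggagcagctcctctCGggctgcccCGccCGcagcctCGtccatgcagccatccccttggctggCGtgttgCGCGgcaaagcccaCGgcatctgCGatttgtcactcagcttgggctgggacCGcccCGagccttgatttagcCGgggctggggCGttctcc
*Grb10*, chr11:12037421-12037670, minus strand: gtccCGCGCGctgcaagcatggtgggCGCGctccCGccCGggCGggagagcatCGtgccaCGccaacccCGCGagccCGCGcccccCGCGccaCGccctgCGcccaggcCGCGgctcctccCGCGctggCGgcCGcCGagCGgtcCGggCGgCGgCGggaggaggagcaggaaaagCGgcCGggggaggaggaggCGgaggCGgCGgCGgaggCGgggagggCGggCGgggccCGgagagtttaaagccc
The *Grb10* stretch held 40 CpG sites and the *Plagl1* stretch 19, where the median of 32851 promoters in the table was 6 and the 90th percentile 25. A second *Grb10* start, inside the gene and not printed, had 8. *Igf2r* had 27, the 4 *Igf2* starts had 1 to 22, the *Mest* starts 7 to 14, *Peg3* and *Dlk1* 8 each, and the *Meg3* starts 0 and 10. Of the 10 genes, 8 had a promoter in the table (15 starts). The sequence GGGGCCCC, a core of the *Plagl1* protein's motif that reads the same on both strands, was in 1 of these 15 stretches (*Peg3*) and in 0.889% of all promoters.

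*H19*, an untranslated RNA, and *Igf2*, the fetal growth factor IGF2, share control elements on chromosome 7, where the parental alleles use the same enhancers in turn. *H19* lies at GRCm38 chr7:142575529-142578143 and *Igf2* at chr7:142650766-142666816, both on the minus strand. *H19* was at 20.2, 17.8, 7.00 and 8.01 CPM in control cultures 3, 7, 14 and 21, and at 35.2, 7.37, 5.86 and 5.72 CPM in GDNF cultures 6, 12, 17 and 22. *Igf2* was at 20.6, 25.7, 9.12 and 11.999 CPM in the same control cultures, and at 34.0, 7.17, 6.62 and 9.81 CPM in the same GDNF cultures. The same 3 cultures, control 3, control 7 and GDNF 6, were high for both RNAs, at 17.8 to 35.2 CPM for *H19* and 20.6 to 34.0 CPM for *Igf2*. The other 5 cultures lay at 5.72 to 8.01 CPM and 6.62 to 11.999 CPM. Since the cultures fell into separate sets of 3 and 5, each under 6 cultures, a correlation of the 2 RNAs is given only as a measure of likeness over all 8, without a test. Among 11460 genes of at least 5 mean CPM, *H19* was the gene most like *Igf2* (Pearson r of log2 CPM 0.948 over 8 cultures). *Rars2* was nearly level with it (0.947). *Igf2* was the second most like *H19* after *LOC100504703* (0.962). Such values are not particular to this pair, since *Mest* reached 0.991 with *Gstm1*. All 3 high cultures were of the *Xist* kind, and GDNF 12 of that kind was low. Control 3 and GDNF 6 also held some Y-linked RNA, and control 7 did not.

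The high and low cultures did not follow the groups. The log2 fold change after GDNF was 0.030 for *H19* (SE 0.62, edgeR adjusted p = 0.984) and -0.23 for *Igf2* (SE 0.54, adjusted p = 0.832). Both values turned on GDNF 6. Without it they were -1.07 for *H19* and -1.10 for *Igf2*, and *H19* changed sign, with edgeR adjusted p of 0.180 and 0.178. The nominal 95% intervals were -1.19 to 1.25 for *H19* and -1.29 to 0.84 for *Igf2*. They leave room for a fall of that size for both RNAs and for a rise of that size for *H19* but not *Igf2*. Per length, *H19* exceeded *Igf2* in all 8 cultures, by a ratio of 2.65 to 4.77 in TPM. The summed stromal markers were lowest in control 3 (579.0 TPM) and GDNF 6 (663.4 TPM) and at 1268 TPM in control 7. Among the 5 cultures low for both RNAs they ran from 1222 TPM in control 21, under control 7, to 3228 TPM in control 14, so the sets overlapped on this measure. The part of cell composition was not tested.

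Each of these RNAs harbours a microRNA, shown here because a change of the host would bear on it. The libraries were made from polyadenylated RNA and did not measure mature microRNAs. *Mir675* lies in an exon of *H19* (hairpin chr7:142577064-142577147) and *Mir483* in an intron of *Igf2* (hairpin chr7:142654924-142654996), both on the minus strand (RefSeq, GRCm38.p6). The seed, bases 2 to 8, is in capitals.
mmu-miR-675-5p: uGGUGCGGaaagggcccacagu
mmu-miR-675-3p: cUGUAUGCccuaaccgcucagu
mmu-miR-483-5p: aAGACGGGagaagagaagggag
mmu-miR-483-3p: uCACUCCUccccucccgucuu
In all, 4 of the 10 genes held 9 mature microRNAs with 9 different seeds, so no seed was shared.

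**Figure D3:**
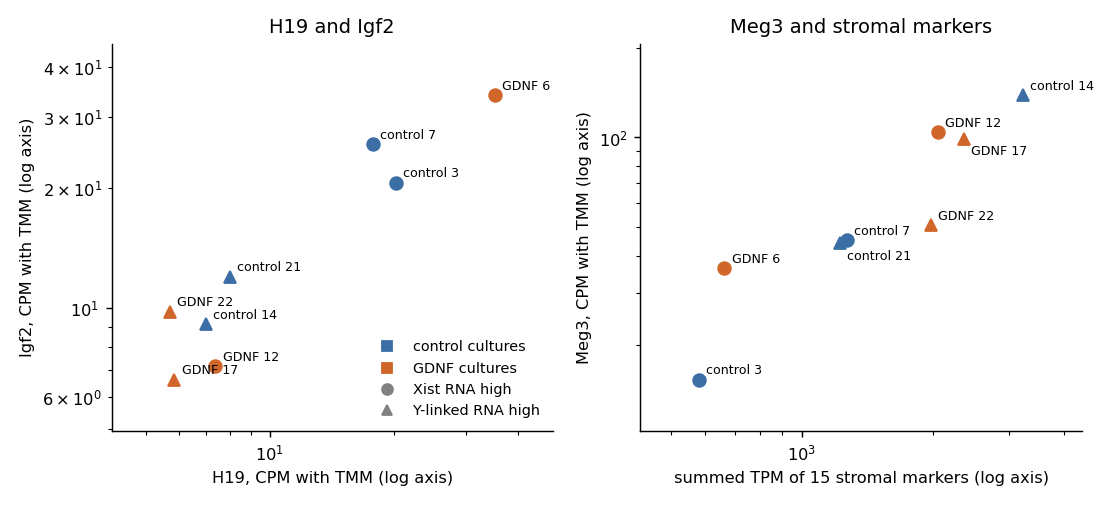
Left, CPM of *Igf2* against *H19* in each culture (log axes). Control 3, control 7 and GDNF 6 stand apart at 17.8 to 35.2 CPM of *H19* from the other 5 cultures at 5.72 to 8.01. Right, CPM of *Meg3* against the summed TPM of 15 stromal markers (log axes), from control 3 at 15.3 CPM and 579.0 TPM to control 14 at 138.7 CPM and 3228 TPM.

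Of the 17 neighbours of *H19*, *Igf2* and *Cdkn1c* in this cluster, 13 were tested. At an unadjusted p of 0.05, 1 was lower, beside 12.9% of all genes. This was *Mrpl23*, a mitochondrial ribosomal protein gene next to *H19*, with a log2 fold change of -0.60 (SE 0.20, edgeR adjusted p = 0.167). Its groups did not overlap in CPM but did in TPM, and it was at -0.27 with the transcript length trend taken out. *Kcnq1ot1*, the long RNA that silences the *Cdkn1c* side of the cluster on the paternal allele, was at 73.7 ± 34.4 CPM in controls and 104.2 ± 2.64 CPM after GDNF (SD, n = 4 each). Its log2 fold change was 0.50 (SE 0.29, edgeR adjusted p = 0.329), and -0.048 with the transcript length trend taken out. *Phlda2*, a maternally expressed gene of the same domain, was at -0.68 (SE 0.64, adjusted p = 0.550).

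*Igf2r*, the receptor that carries IGF2 to the lysosome, spans GRCm38 chr17:12682406-12769664 on the minus strand. Its CPM was 16.5, 25.2, 28.6 and 21.1 in control cultures 3, 7, 14 and 21, and 19.9, 32.6, 27.5 and 18.7 in GDNF cultures 6, 12, 17 and 22, so the groups overlapped throughout. The log2 fold change was 0.11 with an SE of 0.23 (edgeR adjusted p = 0.800), and -0.30 with the transcript length trend taken out. The antisense RNA *Airn*, which silences *Igf2r* on the paternal allele, overlaps 28354 bases of it. *Airn* was at 25.1 ± 4.79 CPM in controls and 30.7 ± 2.42 CPM after GDNF (SD, n = 4 each), with a log2 fold change of 0.29 (SE 0.17, adjusted p = 0.314). The kit does not mark strand, so reads from the shared stretch cannot be assigned to either RNA.

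*Dlk1* and *Meg3* lie in the same cluster on chromosome 12. *Dlk1*, a paternally expressed Notch-like protein that holds cells undifferentiated, spans GRCm38 chr12:109452823-109463336, and *Meg3*, a maternally expressed long RNA, chr12:109541001-109571726, both on the plus strand. *Dlk1* was at 10.2, 12.8, 26.9 and 10.6 CPM in control cultures 3, 7, 14 and 21, and at 26.6, 5.75, 18.9 and 17.3 CPM in GDNF cultures 6, 12, 17 and 22. *Meg3* was at 15.3, 45.2, 138.7 and 44.0 CPM in the same control cultures, and at 36.4, 104.3, 99.0 and 50.6 CPM in the same GDNF cultures. The groups overlapped for both RNAs. The log2 fold changes were 0.18 for *Dlk1* (SE 0.45, edgeR adjusted p = 0.838) and 0.25 for *Meg3* (SE 0.58, adjusted p = 0.820). The 2 RNAs parted in some cultures: GDNF 6 was high for *Dlk1* and low for *Meg3*, and GDNF 12 the reverse. Pearson's r of log2 CPM was 0.161 over the 8 cultures (exact permutation p = 0.707, adjusted over 5 pairs 0.707), Spearman's rho was 0.262 (exact permutation p = 0.536, adjusted 0.536), and r was 0.450 without control 14 and GDNF 12. Pearson's r was 0.635 without GDNF 12 alone and -0.125 without control 14 alone. With 8 cultures this neither shows a relation nor shows that there is none. With the long *Meg3* transcript, the TPM ratio of *Meg3* to *Dlk1* ran from 0.995 in GDNF 6 to 13.5 in GDNF 12. The long transcript was at 2.31 TPM in GDNF 6 and 7.46 TPM in GDNF 12. Its short transcript was at 13.46 and 44.3 TPM there, so the size of this ratio depends on the transcript chosen.

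The order of the cultures by *Meg3* was close to their order by stromal RNA. Ranked by *Meg3* CPM and by the summed TPM of the 15 stromal markers, 6 of the 8 cultures held the same place and all 8 were within 1 place. Control 14 was the highest on both measures (138.7 CPM and 3228 TPM) and control 3 the lowest (15.3 CPM and 579.0 TPM). This likeness was not particular to stromal markers. The summed podocyte markers were likewise lowest in control 3 (23.2 TPM), then GDNF 6 (35.4 TPM), control 21 (58.5 TPM) and control 7 (72.3 TPM). They were highest in GDNF 17 (152.7 TPM). The part of stromal or other cells in the *Meg3* values was not tested. Most reads counted for *Meg3* fitted its short transcript too, since the 1913 nt transcript NR_027652 had 90.8% to 99.1% of the count of the 11460 nt transcript NR_027651. The TPM of *Meg3* therefore depended on the transcript chosen, with a mean of 4.34 for the long and 24.9 for the short transcript. The short transcript gave 20.5 ± 19.4 TPM in controls and 29.4 ± 14.3 TPM after GDNF (SD, n = 4 each, exact permutation p = 0.514). Of 7 neighbours in the *Dlk1*-*Dio3* cluster, all 7 were tested and 0 reached an unadjusted p of 0.05. *Rian* and *Mirg*, the long RNAs downstream of *Meg3*, had log2 fold changes of 0.020 (SE 0.53) and -0.31 (SE 0.52).

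*Mest* and *Peg3*, paternally expressed genes of embryonic tissues, varied widely between cultures. *Mest*, which encodes an enzyme of the hydrolase fold, spans GRCm38 chr6:30723547-30748465 on the plus strand. It was at 183.2, 59.8, 60.6 and 90.1 CPM in control cultures 3, 7, 14 and 21, and at 160.7, 52.2, 79.1 and 42.2 CPM in GDNF cultures 6, 12, 17 and 22. Control 3 and GDNF 6 stood highest, as for *H19*. *Peg3*, a zinc finger protein, lies at GRCm38 chr7:6703892-6730431 on the minus strand. It was at 84.7, 36.9, 20.3 and 85.0 CPM in control cultures 3, 7, 14 and 21, and at 46.9, 51.8, 55.9 and 42.0 CPM in GDNF cultures 6, 12, 17 and 22. The 4 GDNF cultures lay close together, within the range of the controls. The log2 fold changes were -0.24 for *Mest* (SE 0.47, edgeR adjusted p = 0.793) and -0.21 for *Peg3* (SE 0.39, adjusted p = 0.781). With the transcript length trend taken out *Peg3* was at -0.62 (adjusted p = 0.505) and *Mest* at -0.23. The gene most like *Peg3* over the cultures was *Peg3os*, its antisense RNA (Pearson r 0.979), and without strand their reads cannot be told apart where they overlap. The gene most like *Mest* was *Gstm1*, a glutathione transferase (0.991). *Copg2*, whose 3′ end overlaps 912 bases of *Mest*, had a log2 fold change of 0.048 (SE 0.32).

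**Figure D4:**
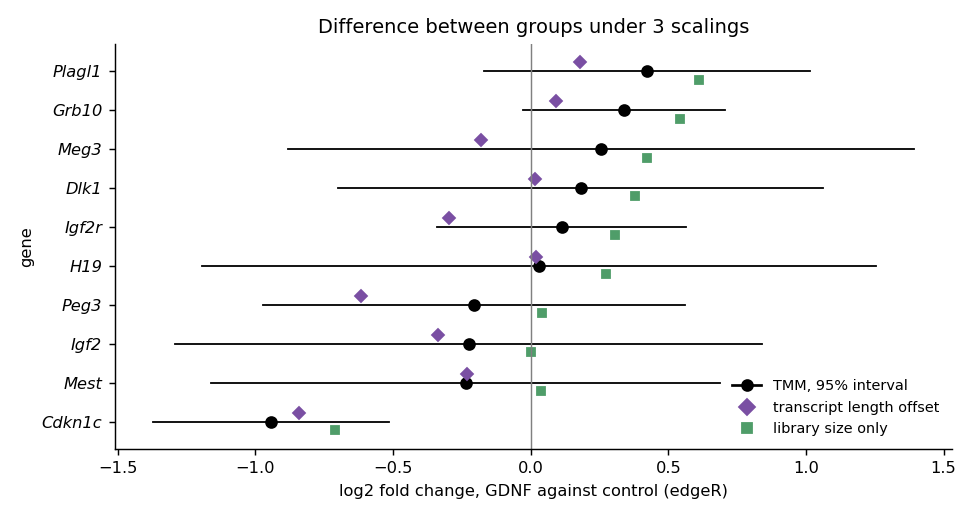
Log2 fold change after GDNF of each gene with TMM scaling (black points, nominal 95% intervals by a normal multiplier), with a transcript length offset (purple) and with library size only (green). The *Cdkn1c* interval lies below 0 and all 9 others span 0. *Peg3* and *Mest* are below 0 with TMM but at 0.040 and 0.036 with library size only, and *Igf2r* and *Meg3* are above 0 but at -0.30 and -0.18 with the length offset.

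The genes nearest to the others in pattern were *Zfp639* for *Cdkn1c* (0.982), *Nlk* for *Plagl1* (0.983), *Neurl2* for *Grb10* (0.980), *Zc3h4* for *Igf2r* (0.932), *Arfgap1* for *Meg3* (0.963) and *Enpp2* for *Dlk1* (0.929), each Pearson r of log2 CPM over 8 cultures among 11460 genes. For *Cdkn1c* and *Plagl1* no relation passed its test (r = -0.397, exact permutation p = 0.326, adjusted over 5 pairs 0.580, Spearman's rho -0.452, exact permutation p = 0.267, adjusted 0.374), and r was 0.261 without control 3 and control 21.

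The IGF pathway around these genes was measured in the same fit. Over all genes in it, 9.25% were higher and 12.9% lower at an unadjusted p of 0.05 (edgeR). *Igf1*, the postnatal ligand, was at 12.96 ± 8.98 CPM in controls and 15.4 ± 6.70 CPM after GDNF (SD, n = 4 each), with a log2 fold change of 0.25 (SE 0.50, edgeR adjusted p = 0.793), and *Ins2* had no count in any culture. All 4 IGF and insulin receptor genes had estimates above 0, with a median of 0.32, and 1 reached an unadjusted p of 0.05. This was *Igf1r*, the receptor that signals for both IGFs, with a log2 fold change of 0.46 (SE 0.18, adjusted p = 0.188), and *Insr* was at 0.45 (SE 0.21, adjusted p = 0.233). With the transcript length trend taken out they were at -0.026 and 0.034. Of 10 adaptors tested, *Grb2* was lower at an unadjusted p of 0.05 (-0.41, SE 0.15, adjusted p = 0.187), and 0 were higher. Of 9 IGF binding proteins, which hold IGFs in the extracellular space, 6 estimates lay below 0, with a median of -0.39. At an unadjusted p of 0.05, 2 of them were lower and 0 higher. *Igfbp4* was at 171.4 ± 32.8 CPM in controls and 119.8 ± 9.50 CPM after GDNF (SD, n = 4 each), with a log2 fold change of -0.52 (SE 0.16, adjusted p = 0.167). *Igfbpl1* had at most 18 counts in any culture. *Igfbp7* and *Igfbp3* were at -0.37 (SE 0.19) and -0.39 (SE 0.21). *Htra1*, a protease that cleaves binding proteins, was 1 of 5 in its list to reach an unadjusted p of 0.05 (-0.70, SE 0.29, adjusted p = 0.203). Of the 3 *Igf2* mRNA-binding protein genes, 0 did.

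Other imprinted genes did not share a direction. Of 35 tested, 4 were higher and 6 lower at an unadjusted p of 0.05, beside 9.25% and 12.9% of all genes. Their median log2 fold change was 0.031, and 0 passed the adjusted test. The 4 with the smallest p were *Gab1*, a receptor docking protein (0.65, SE 0.15), *Commd1*, a copper transport regulator (-0.71, SE 0.17), *Pon3*, a lactonase (-0.58, SE 0.17), and *Ppp1r9a*, a phosphatase-targeting protein (0.83, SE 0.25), each with an edgeR adjusted p of 0.167. The groups did not overlap in CPM for any of these 4, beside 6.99% of all genes higher and 6.26% lower without overlap. The 4 were picked by p in the same cultures, so this is no separate support. Of 12 factors that set or keep imprints, 10 estimates lay above 0, 2 were higher and 1 lower at an unadjusted p of 0.05, and the median was 0.42, or 0.11 with the transcript length trend taken out. *Dnmt3a*, a methyltransferase that sets new marks, was at 0.57 (SE 0.22, adjusted p = 0.187), *Tet1*, which oxidises methylcytosine, at 0.60 (SE 0.24, adjusted p = 0.193), *Dnmt3l*, a cofactor, at -0.92 (SE 0.38, adjusted p = 0.202) and *Dnmt1*, which copies marks at division, at 0.34 (SE 0.15, adjusted p = 0.230). Beside *Plagl1*, *Phactr2* was at 0.67 (SE 0.21) and *Sf3b5* at -0.69 (SE 0.19), both with an adjusted p of 0.167. The 3 tested neighbours of *Grb10* and the 2 each of *Igf2r*, *Peg3* and *Mest* included 0 at an unadjusted p of 0.05.

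**Figure D5:**
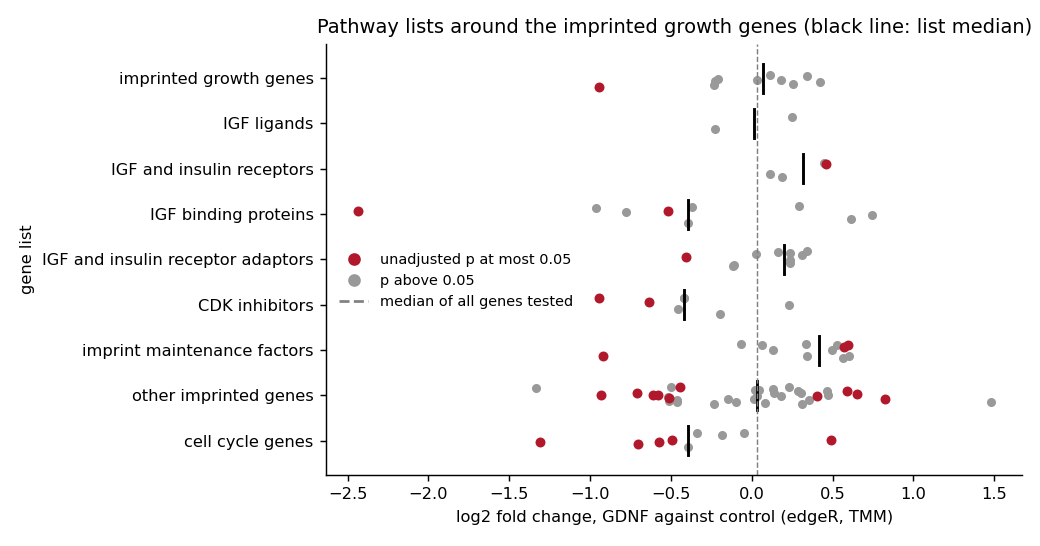
Log2 fold change after GDNF of each tested gene in 9 lists (edgeR, TMM), with red for an unadjusted p of at most 0.05, a black line at each list median and a dashed line at the median of all genes (0.033). The inhibitors of cyclin-dependent kinases and the IGF binding proteins have medians of -0.42 and -0.39, and no gene shown passed the adjusted test.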

How the data were processed

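RNA was sequenced from 8 tubuloid cultures, 4 per group by their labels. The authors mapped SMART-Seq v4 poly-A libraries with STAR to mm10 (GRCm38), counted with featureCounts, and deposited per RefSeq transcript a raw count, FPKM and TPM. FPKM, as deposited, served only to give transcript lengths. A read that fits several transcripts is in the count of each. Versions and strand handling are not given in the sources used here. The study spread the libraries over lanes of a flow cell, without saying which, so lane and group cannot be told apart.

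The counts of all transcripts with a given symbol were added. Groups were compared by edgeR 4.0.16 under R 4.3.3 (filterByExpr, TMM scaling, glmQLFit and glmQLFTest, Benjamini-Hochberg over 16557 genes, 4 against 4). The SE is the log2 fold change over the square root of F. TPM, as deposited, was taken from each gene's most counted transcript, without a pseudocount, and its group means were compared by an exact two-sided permutation test (70 assignments). With over 72991721 counts per culture, counting error is small beside culture variation. Alternatives were DESeq2 1.42.0, limma 3.58.1 voom, other scalings and filters, left-out cultures and, added after seeing the data, a transcript length offset (a spline of log2 CPM on log2 length, 5 degrees of freedom) and the short *Meg3* transcript. Of 5 planned correlations, the tests of 3 with *H19* or *Igf2* were computed but are not given, since the cultures fall into separate sets for these RNAs. The members and lists were chosen with earlier results of these data known. Named genes were all members, up to 4 of each list by smallest p and any gene of a member's cluster, and for each member its most alike genes. The scripts were tested on simulated data. Positions are from GENCODE M21 and sequences from RefSeq GRCm38.p6.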

Additional observations from a re-analysis of the deposited data

Results flagged for a closer look

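Among 40 sets of 4 cultures examined (10 genes, 2 groups, TPM and CPM), 5 had a culture whose gap to its neighbour was large for the range of the set. TPM and CPM scale the same libraries, so these sets are not independent and their count cannot be set against chance. GDNF 6 stood apart from the other GDNF cultures for *H19*, at 25.1 TPM against 4.48 to 5.63 TPM and at 35.2 CPM against 5.72 to 7.37 CPM. The same culture stood apart for *Igf2*, at 5.27 TPM against 1.10 to 1.75 TPM and at 34.0 CPM against 6.62 to 9.81 CPM. Control 14 stood apart from the other controls for *Dlk1*, at 26.9 CPM against 10.2 to 12.8 CPM. A term for a GDNF effect that differs between the 2 kinds of culture passed an adjusted p of 0.05 (edgeR) for 0 of the 10 genes and 0 of all genes, and an unadjusted p of 0.05 for 94 of the 16557 genes. That is fewer than this threshold would pass with no effect at all. With 2 cultures of each kind per group, the test does not show that the effect was alike in both kinds.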

How the results depend on the processing

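The direction held for *Cdkn1c*, *Grb10* and *Plagl1* under all 18 alternatives to the log2 fold change, and *Cdkn1c* ranged from -1.17 to -0.71. By DESeq2, 1346 genes and 1 of the 10 members passed the adjusted p, where edgeR called 0 genes and 3665 reached an unadjusted p of 0.05, and limma called 0. With library size only, 2 members passed the unadjusted p and 0 had groups without overlap in CPM, and the list medians moved up (10 members 0.29, inhibitors of cyclin-dependent kinases -0.20), as did all genes (0.25). Leaving out 1 culture gave 1 to 3 members past the unadjusted p (3 without GDNF 6, 2 without control 14), 0 to 2 past the exact test in TPM and 2192 to 4104 genes at an unadjusted p of 0.05. The cause of these changes was not tested.

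Members that changed sign passed the adjusted p under 0 of these settings. *H19* was at -0.10 with the kind of culture as a covariate and -0.66 by limma-voom, *Dlk1* at -0.24 and *Peg3* at 0.16 by limma-voom, and with library size only *Peg3* was at 0.040 and *Mest* at 0.036. The transcript length offset gave -0.30 for *Igf2r* and -0.18 for *Meg3*, and -0.21 for the median of the 10 members. Leaving out 1 culture gave log2 fold changes of -1.07 to 0.31 for *H19*, -1.10 to 0.053 for *Igf2*, -0.052 to 0.24 for *Igf2r*, -0.067 to 1.06 for *Meg3*, -0.11 to 0.62 for *Dlk1*, -0.49 to 0.051 for *Peg3* and -0.77 to 0.25 for *Mest*. The mean TPM difference ranged from -2.47 to 4.41 for *H19*, -0.73 to 0.69 for *Igf2*, -0.56 to 5.19 for *Peg3* and -3.00 to 5.93 for *Mest*, and in CPM it was -2.43 for *Igf2*, -7.59 for *Peg3* and -14.9 for *Mest*. Pearson's r of *Dlk1* and *Meg3* ranged from -0.125 to 0.635 without 1 culture, and that of *Plagl1* and *Cdkn1c* was 0.0949 with group means removed. No paired analysis was run, because the labels do not say whether any control and GDNF culture came from the same preparation. The groups share no culture numbers.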
